A study of Homo sapiens with 4 samples.

Results

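The genes of retinoid metabolism and response described here are 10 of the 26255 gene symbols with a deposited value: the retinaldehyde dehydrogenases ALDH1A1, ALDH1A2 and ALDH1A3, the reductase DHRS3, the carrier CRABP2, the retinoic acid receptors RARA, RARB and RARG, and the responders RARRES1 and RARRES3. They were taken by symbol, and all 10 were found. The set was chosen by the low RARRES1 level of the mix culture against the single culture, about 6-fold, so every value of that contrast is a description of these libraries and supports nothing. All 4 libraries, 1 per group, come from A549, a long-established line of human lung adenocarcinoma. For the tumors, laser microdissection took cells of solid or of acinar (gland-forming) growth out of xenografts in immunodeficient mice. For the cultures, A549 cells carrying GFP were recovered by sorting from 3D colonies grown without cancer-associated fibroblasts (CAFs, the fibroblasts of a tumor's stroma), called the single culture, or with them, read here as the culture titled as a mix. The labels name no number of mice, colonies or CAF donors behind a library, and no difference below has a replicate check.

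Retinoic acid is made from vitamin A in steps. Retinol is oxidised to retinaldehyde by retinol dehydrogenases such as RDH10, a step that DHRS3 reverses, and the ALDH1A enzymes then oxidise retinaldehyde irreversibly to retinoic acid. CRABP2 carries the acid to the nucleus, where a retinoic acid receptor (RAR) paired with a retinoid X receptor (RXR) controls genes such as RARB and DHRS3, and CYP26 enzymes break the acid down. In the lung, retinoids are needed for branching and alveolar development and keep airway epithelium from turning squamous.

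The receptor pair binds direct repeats of a core sequence, classically AGGTCA and near variants of it, and RARB, itself a receptor gene, carries the best known of these elements. Of the 10 genes, 9 had at least 1 promoter in the RefSeq table (GRCh38.p14), 17 promoters in all, each from 250 bases before to 50 after an annotated start; RARRES3 had no entry. Direct repeats with 1, 2 or 5 bases between the cores (DR1, DR2 and DR5) were searched on both strands, each core being AGGTCA or 1 of its variants that start with GG or AG, go on with G or T and end in TCA. A DR match can hold an AGGTCA match within it. A DR5 was found in 1 of the 17, a RARB promoter, where 0.0883% of 35114 promoters of the same length held one, and no DR1 (0.131% of promoters) or DR2 (0.0399%) was found. RARB is in the set and its element was known beforehand, so the 1 of 17 is a description. The exact core AGGTCA, on either strand, was in 3 of the 17 promoters (of DHRS3, RARA and another RARB start), against 13.8% of all promoters. The RARB promoter is shown because it holds the only DR5 among these genes, and the RARRES1 promoter because RARRES1 differed most between the cultures; both run 5′ to 3′ on the gene's strand and end at the base before the start, and capitals mark the DR5 cores.
RARB, chr3:25428113-25428262, plus strand: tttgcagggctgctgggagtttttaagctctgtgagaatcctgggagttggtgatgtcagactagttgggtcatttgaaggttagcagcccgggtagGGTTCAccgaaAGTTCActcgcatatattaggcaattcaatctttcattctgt
RARRES1, chr3:158732458-158732707, minus strand: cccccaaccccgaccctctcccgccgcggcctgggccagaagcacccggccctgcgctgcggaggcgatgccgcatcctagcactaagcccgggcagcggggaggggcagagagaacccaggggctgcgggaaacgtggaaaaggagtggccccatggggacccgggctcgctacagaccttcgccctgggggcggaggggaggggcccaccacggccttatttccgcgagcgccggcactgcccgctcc
The RARB element lay 53 to 37 bases before the start. Among the promoters of the other retinoid pathway genes listed further on, 1 of 93 held a DR5, that of CYP26A1, an enzyme of retinoic acid breakdown. It lay on the opposite strand at chr10:93073803-93073819 and is shown for comparison as it reads on the gene's strand.
RARB DR5: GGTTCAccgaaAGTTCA
CYP26A1 DR5: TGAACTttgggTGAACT
A match describes these letters only, and no match in the RARRES1 window says nothing of elements elsewhere.

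Levels are given in scaled counts, the deposited signal after division by one constant for the whole table, with no division by gene length. Estimated depth ran from 6632980 fragments (acinar) to 12184300 (mix), and 3 fragments correspond to 0.242 to 0.465 scaled counts. Intervals are 95% intervals for counting error alone, exact Poisson for a level and exact conditional binomial for a fold. A gene was measured in a comparison where it reached 1 scaled count in at least one of its libraries, and was counted as different at 2-fold or more on log2(scaled count + 1). The epithelial markers KRT8, KRT18, KRT7, KRT19, EPCAM and CDH1 were all above 1 scaled count in every library, although EPCAM was at 20.3 (solid) and 28.1 (acinar) in the tumors and at 2.31 (single) and 2.09 (mix) in the cultures. KRT19 was at 607 (solid), 818 (acinar), 33.4 (single) and 15.1 (mix). Between the cultures, KRT19 (2.21-fold, 1.85 to 2.64) and CDH1 (1.67-fold, 1.57 to 1.79) were lower in the mix. KRT7 was higher in the mix (1.90-fold, 1.84 to 1.96), and EPCAM did not differ beyond counting error. KRT8 and KRT18 have fractional fragments and no interval. Of 12 fibroblast markers, 4 reached 1 scaled count in each library, though not the same 4. COL1A1 and ACTA2 did so in every library, LUM in both tumors, and PDGFRA and THY1 in both cultures. The remaining marker was COL3A1 in the solid tumor and FAP in the acinar tumor. FAP was at 2.17 in the acinar against 0.42 in the solid tumor (5.17-fold, 1.44 to 28.1). The summed level of all 12 was 59.9 in solid tumor cells, 96.1 in acinar tumor cells, 44.9 in single culture and 47.2 in mix culture. LUM made up most of the acinar sum, at 55.4 against 19.6 (solid), 0 (single) and 0.0805 (mix). THY1 and PDGFRA were listed at 0 in both tumors. DCN, POSTN and FAP were listed at 0 in both cultures. Host fibroblasts of the xenografts would be mouse cells, while the stated build, hg19, is human. The part of mouse reads in the tumor values was not tested. In RNA of many cells, fewer cells with a transcript and less of it per cell cannot be told apart.

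ALDH1A1, the main retinaldehyde dehydrogenase of this set, was among the most abundant RNAs of these cells. It stood at 6512 scaled counts in solid tumor cells, 10349.9 in acinar tumor cells, 7920 in single culture and 6832 in mix culture. That is 0.641%, 1.01%, 0.813% and 0.696% of each library's total. The acinar tumor was the highest of the 4, 1.59-fold above the solid tumor (interval 1.57 to 1.61), and the mix culture was 1.16-fold below the single culture (1.15 to 1.17). Both intervals are narrow because 46566 to 89112 fragments lie behind each level, and neither difference reached 2-fold. The 2 cultures lay between the 2 tumors, so the settings overlapped.

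ALDH1A3, which oxidises the same substrate, was at 4.48, 8.68, 4.71 and 8.21 scaled counts in the solid tumor, acinar tumor, single culture and mix culture. It was 1.94-fold higher in the acinar than in the solid tumor (1.23 to 3.10) and 1.74-fold higher in the mix than in the single culture (1.24 to 2.48). The acinar tumor and mix culture did not differ beyond counting error (1.06-fold, 0.749 to 1.48), nor did the solid tumor and single culture (1.05-fold lower in the solid tumor, 0.666 to 1.69). Per kilobase of the longest coding transcript in GENCODE 29, the level of ALDH1A1 was between 1549 times (mix culture) and 3131 times (single culture) that of ALDH1A3. With the length of all exons instead, a setting added after the data were seen, these ratios were 2141 and 4328. ALDH1A2, the dehydrogenase of mesoderm and stroma, had 2 fragments in the solid tumor and was listed at 0 in the other libraries. At 0 the interval reached up to 0.572 scaled counts (acinar), 0.328 (single) and 0.297 (mix). ALDH1A2 was not measured in either comparison, and no fold is given.

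DHRS3, the reductase that turns retinaldehyde back into retinol and is itself induced by retinoic acid, was lower in both the acinar tumor and the mix culture. Its level was 149 scaled counts in solid tumor cells, 97.7 in acinar tumor cells, 115 in single culture and 77.8 in mix culture. It was 1.53-fold lower in the acinar than in the solid tumor (1.39 to 1.69) and 1.48-fold lower in the mix than in the single culture (1.36 to 1.61). Each neighbour in the order solid, single, acinar, mix differed beyond counting error. CRABP2, the carrier that hands retinoic acid to the receptor, was low throughout, at 2.24, 2.02, 4.98 and 3.95 scaled counts in the solid tumor, acinar tumor, single culture and mix culture. Neither the tumors (1.11-fold lower in the acinar, 0.501 to 2.51) nor the cultures (1.26-fold lower in the mix, 0.844 to 1.89) differed beyond counting error. Both tumors were below both cultures, though the solid tumor and mix culture overlapped in counting error (1.76-fold, 0.986 to 3.32).

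**Figure D1:**
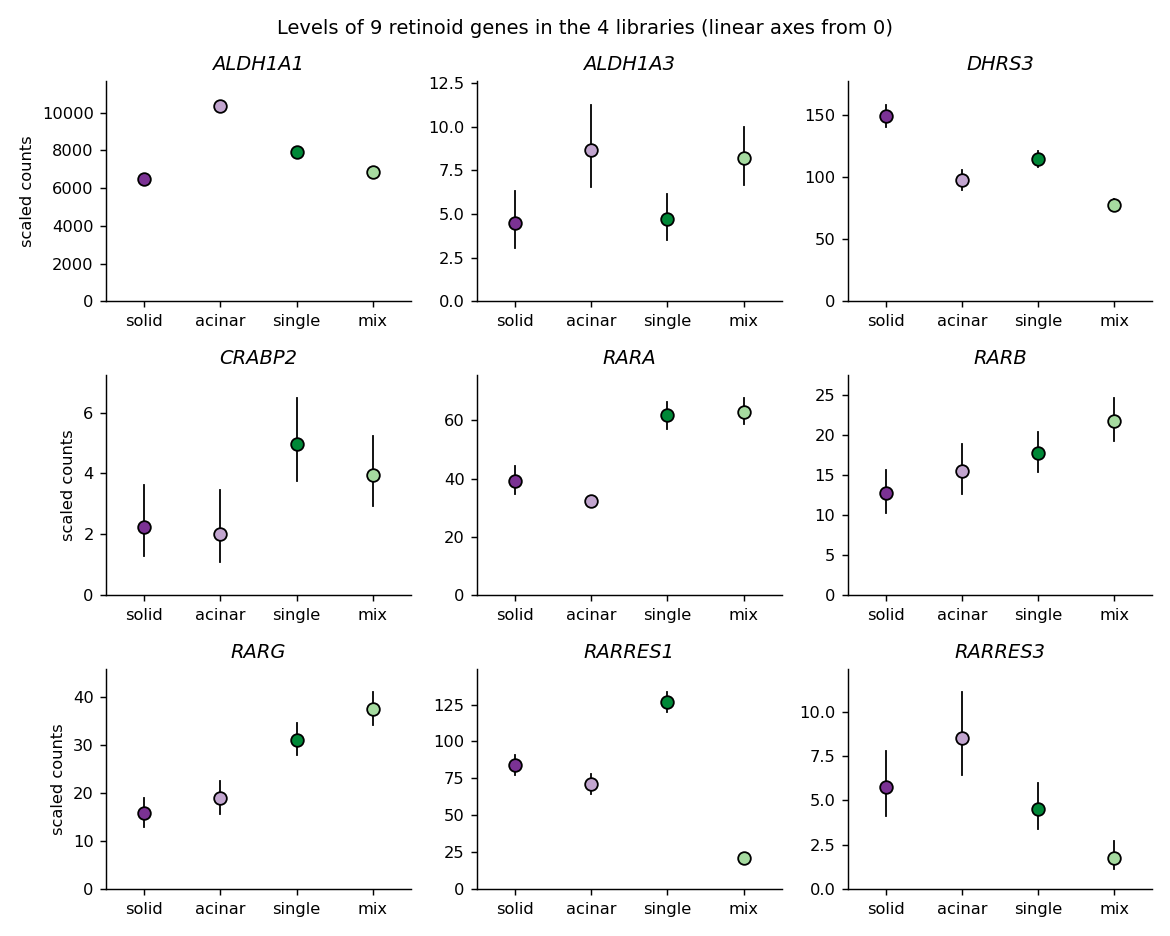
Level of 9 retinoid genes in scaled counts (linear axis from 0, one panel per gene) in the solid tumor, acinar tumor, single culture and mix culture, each point 1 library; bars are 95% Poisson counting intervals, left out where the fragment count was not whole (RARA, acinar tumor). RARRES1 runs from 21.1 in the mix culture to 127 in the single culture, and ALDH1A3 is higher in the acinar tumor and the mix culture than in the other libraries.

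The receptors were present in all 4 libraries, and each was lower in both tumors than in both cultures. RARA, the most broadly expressed receptor, was at 39.3 scaled counts in solid tumor cells, 32.3 in acinar tumor cells, 61.7 in single culture and 63.0 in mix culture. The cultures did not differ beyond counting error (1.02-fold, 0.920 to 1.13). The acinar value of RARA rests on a fractional fragment estimate, so its ratio to the solid tumor, 1.22-fold lower, has no interval. RARG, prominent in epithelia, was at 15.8, 18.9, 31.2 and 37.5 scaled counts in the solid tumor, acinar tumor, single culture and mix culture. It was 1.20-fold higher in the mix than in the single culture (1.04 to 1.39), and the 1.20-fold difference between the tumors was within counting error (0.919 to 1.56). Its level in the solid tumor was 1.97-fold below the single culture (1.59 to 2.46).

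RARB, the receptor with the DR5 shown above, was at 12.7 scaled counts in solid tumor cells, 15.5 in acinar tumor cells, 17.8 in single culture and 21.8 in mix culture. The mix culture was 1.23-fold above the single culture (1.02 to 1.48), and the tumors did not differ beyond counting error (1.22-fold higher in the acinar, 0.908 to 1.64). The acinar tumor and the single culture, neighbours in this order, also overlapped (1.15-fold lower in the acinar, 0.897 to 1.47). Per kilobase, RARA was the highest and RARB the lowest of the RARs in each library, with 20.3, 10.5 and 5.76 scaled counts per kilobase for RARA, RARG and RARB in the single culture. This order was the same with the length of all exons. In the cultures RARB lay above no difference, and RARRES1, RARRES3 and DHRS3, also retinoic acid responders, lay below it. The further responders listed later went both ways.

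RARRES1, a membrane protein gene first found by its induction with a synthetic retinoid, was the one gene of the set past 2-fold on the log2(scaled count + 1) scale, in the culture comparison. It was at 83.9 scaled counts in solid tumor cells, 71.0 in acinar tumor cells, 127 in single culture and 21.1 in mix culture. Counted fragments were 600, 458, 1425 and 262. The single culture was the highest and the mix culture the lowest of the 4, with both tumors between them. RARRES1 was 6.004-fold lower in the mix than in the single culture (5.26 to 6.88), the value for which the set was chosen, and ranked 3 from the lowest among 13485 genes. The acinar tumor was 1.18-fold below the solid tumor (1.04 to 1.34) and 3.37-fold above the mix culture (2.89 to 3.93). Of the 12 fibroblast markers, 5 were higher in mix culture, 4 were lower and 3 were listed at 0 in both cultures. COL1A1 stood at 19.3 scaled counts (single) against 29.5 (mix) and THY1 at 1.33 against 2.01, while ACTA2 stood at 21.4 against 13.3 and PDGFRA at 1.96 against 1.13. Of the markers with an interval, only COL1A1 differed beyond counting error (1.53-fold higher in the mix, 1.29 to 1.82). THY1 (0.766 to 3.08) and PDGFRA (0.273 to 1.18) did not, and ACTA2 has fractional fragments and no interval. The part of fibroblast RNA in the culture values was not tested.

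RARRES3, which encodes a small phospholipase and acyltransferase and is also induced by retinoids, was at 5.73, 8.53, 4.53 and 1.77 scaled counts in the solid tumor, acinar tumor, single culture and mix culture. It was 2.56-fold lower in the mix than in the single culture (1.52 to 4.43, from 51 and 22 fragments). On the log2(scaled count + 1) scale this was -0.997, just short of 2-fold, and it passed with each library scaled to its own total (-1.01) or by its upper quartile (-1.01), or with a pseudocount of 0.1 (-1.31). The acinar tumor was 1.49-fold above the solid tumor, within counting error (0.975 to 2.29). It is the only one of the 9 measured genes that was higher in both tumors than in both cultures, with the solid tumor and single culture within counting error of each other (1.26-fold, 0.818 to 1.95).

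**Figure D2:**
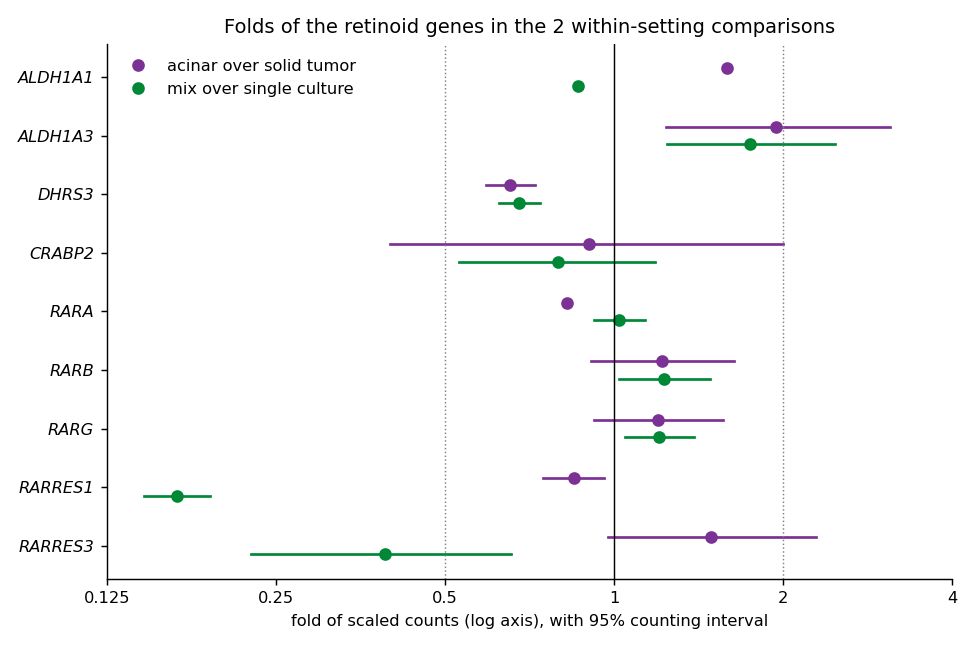
Fold of scaled counts (log axis) for 9 retinoid genes, acinar over solid tumor and mix over single culture, with 95% counting intervals as bars; the solid vertical line marks no difference and dotted lines mark 2-fold. RARRES1 lies at 6.004-fold lower in the mix culture, while ALDH1A3 lies above and DHRS3 below no difference in both comparisons.

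Of the 10 genes, 9 were measured in each comparison. Between the tumors, 0 of 9 measured genes were 2-fold higher or lower in the acinar tumor, where 1.98% of 13979 genes were higher and 2.55% lower. Their median log2 ratio was 0.25, against 0.01 for all genes, and 4 of the 8 genes with an interval differed beyond counting error, 2 higher (ALDH1A1 and ALDH1A3) and 2 lower (DHRS3 and RARRES1). By the same interval rule 35.1% of 12405 genes differed, 18.4% higher and 16.7% lower. Between the cultures, 1 of 9 (RARRES1) was 2-fold lower in the mix culture and 0 higher, where 1.74% of 13485 genes were lower and 0.682% higher; the contrast chose the set, so the count is a description. The median was -0.21 against 0.01 for all genes. Of the 9, 7 differed beyond counting error, 3 higher (ALDH1A3, RARB and RARG) and 4 lower (RARRES1, RARRES3, ALDH1A1 and DHRS3), where 43.8% of 11804 genes differed, 23.4% higher and 20.4% lower. The 2 comparisons share no library. Whether an interval leaves out no difference depends on the fragments behind a gene, and these shares are not matched for that.

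**Figure D3:**
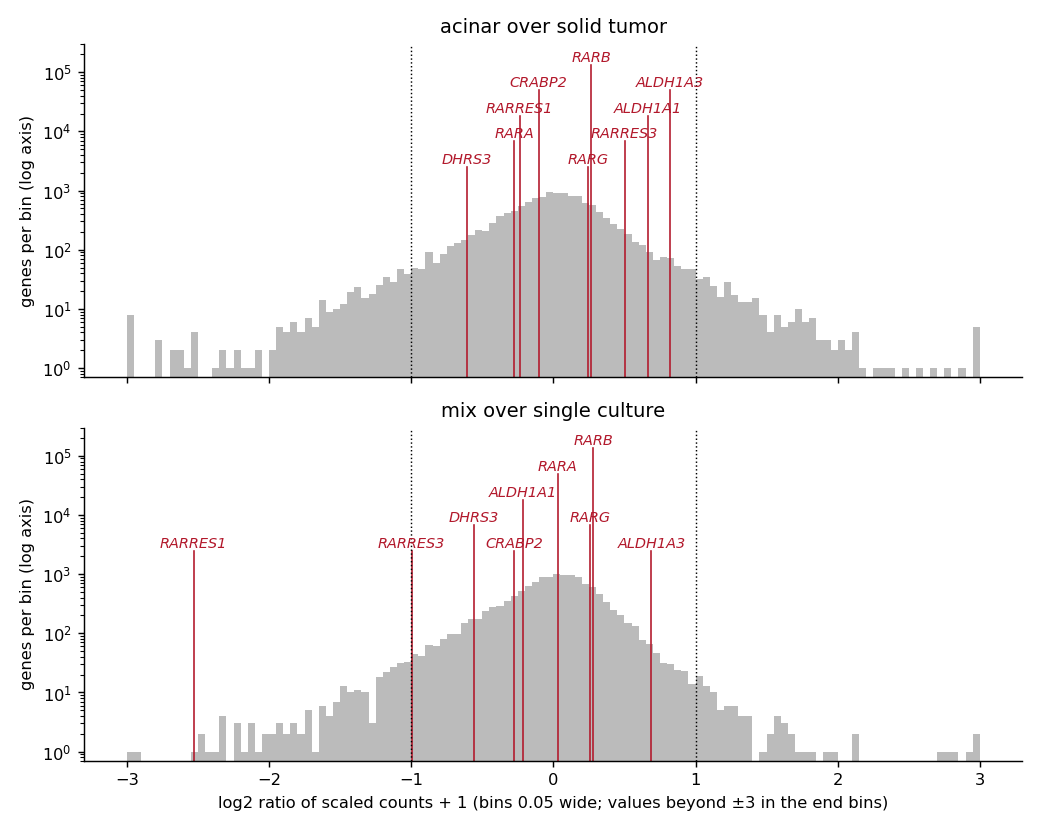
Number of genes per bin (log axis) by log2 ratio of scaled counts + 1, for acinar over solid tumor (upper) and mix over single culture (lower), with 9 retinoid genes as labelled vertical lines and 2-fold as dotted lines. RARRES1, at -2.53 between the cultures, lies in the lower tail, and the other genes lie within 2-fold in both panels.

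Between settings, 5 of the 9 measured genes did not overlap between tumors and cultures: RARA, RARB, RARG and CRABP2 were lower in both tumors and RARRES3 was higher. Over all genes 38.7% were lower and 39.8% higher in both tumors, 78.5% together, so a lack of overlap was common. By the nearest pair of libraries 0 of the 9 reached 2-fold in either direction, against 9.67% of 14561 genes higher and 8.22% lower in the tumors. This comparison uses the same 4 libraries as the others, and growth in mice cannot be told apart from microdissection, which was used for both tumors and for neither culture. Transcript length moved with it: the median log2 difference of tumors from cultures was 0.33 in the shortest of 4 equal bins of transcript length and -0.31 in the longest, over the 88.4% of measured genes with a GENCODE length. RARA, RARB and RARG lie in the next shortest bin, whose median was 0.03, and differed by -0.79, -0.46 and -0.94. CRABP2 and RARRES3, both in the shortest bin, differed by -0.80 and 1.03. The part of length in these differences was not tested.

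Of the pathway's other genes, 85 were listed by role: retinol uptake and storage, dehydrogenases, other aldehyde dehydrogenases, carriers and breakdown enzymes, RXRs with coregulators, and further responders. Between the cultures 55 were measured, 0 were 2-fold higher and 1 was 2-fold lower in the mix culture. The 1 was ADH1C, an alcohol dehydrogenase, with 31 fragments in single culture and 1 in mix culture (34.2-fold lower, 5.70 to 1395). Of the 55, 40 had a ratio below 0, which is 72.7% against 48.0% of all genes, with a median of -0.16 against 0.01. Of the 50 with an interval, 23 were lower and 7 higher beyond counting error, against 20.4% and 23.4% of all genes. These shares too are not matched for fragments, and the lists were chosen with earlier results of these data known. By role, ratios below 0 made up 12 of 15 measured dehydrogenases and reductases, with a median of -0.18. They made up 5 of 6 other aldehyde dehydrogenases (median -0.25) and 10 of 13 RXRs and coregulators (median -0.13). For retinol uptake and storage the share was 4 of 5 (median -0.24), and for carriers and breakdown enzymes 2 of 2 (median -0.61). Among the further responders, 7 of 14 ratios were below 0, near the share of all genes. Between the cultures the median log2 ratio also moved with transcript length, from 0.07 in the shortest bin to -0.06 in the longest. The part of length in these shares was not tested.

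RDH10, the main retinol dehydrogenase, was at 81.7 scaled counts in solid tumor cells, 62.0 in acinar tumor cells, 75.2 in single culture and 46.8 in mix culture. It was 1.61-fold lower in the mix than in the single culture (1.44 to 1.79) and 1.32-fold lower in the acinar than in the solid tumor (1.16 to 1.499). CYP26B1, which breaks retinoic acid down, was at 17.1, 18.6, 53.2 and 30.4 scaled counts in the solid tumor, acinar tumor, single culture and mix culture. Its ratio of mix to single culture was 0.570 (interval 0.4999 to 0.650), and both tumors were below both cultures.

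STRA6, the receptor that takes up retinol and a retinoic acid target, was at 109 scaled counts in solid tumor cells, 136 in acinar tumor cells, 171 in single culture and 145 in mix culture. It was 1.24-fold higher in the acinar than in the solid tumor (1.13 to 1.37) and 1.18-fold lower in the mix than in the single culture (1.11 to 1.26). CYP26A1, CRABP1 and LRAT, the enzyme that stores retinol as esters, had 0 to 3 fragments in each library. FABP5, a fatty acid carrier that can also deliver retinoic acid, had 0, 1, 2 and 9 fragments, but it has many near-identical pseudogenes and its assignment is uncertain.

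Of the RXRs, RXRA was at 56.9, 47.3, 141 and 121.3 scaled counts in the solid tumor, acinar tumor, single culture and mix culture, and RXRB at 45.3, 49.9, 32.2 and 39.9. RXRA was at least 2-fold lower in both tumors than in both cultures on the log2(scaled count + 1) scale, the nearest pair being solid tumor and mix culture (2.13-fold, 1.91 to 2.38). RXRB went the other way, from 1.14-fold (solid tumor over mix culture, 0.985 to 1.31) to 1.55-fold higher (acinar tumor over single culture, 1.33 to 1.81). RXRG was listed at 0 in all 4.

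Between the tumors, 58 of the 85 were measured, 2 were 2-fold higher and 3 lower in the acinar tumor, and the median was -0.02 against 0.01 for all genes. Among the higher was the adhesion gene ICAM1, at 6.98 against 1.96 scaled counts (3.56-fold, 1.92 to 7.03). Lower were the retinol dehydrogenase DHRS9, at 3.41 against 14.0 scaled counts (4.10-fold, 2.56 to 6.83), CD38, a surface enzyme induced by retinoic acid in leukemic cells, at 1.24 against 5.17 (4.17-fold, 1.91 to 10.4), and the alcohol dehydrogenase ADH4, at 0.155 against 1.68 (10.8-fold, 1.60 to 463, from 1 fragment). Of 7 leukocyte markers, none at 0 in either tumor, 4 were lower and 3 higher in the acinar tumor, and their summed level was 145 against 237 scaled counts. CD68 made up most of the sum, at 113 against 175, and CD79A was higher in the acinar tumor, at 2.95 against 0.699 (4.21-fold, 1.52 to 14.4). PTPRC had 9 fragments in each tumor (1.11-fold, 0.390 to 3.15). The sorted cultures carried these markers too, with sums of 49.5 (single) and 44.4 (mix) and CD68 at 29.5 and 26.8. CD14 was higher in the cultures, at 15.4 (single) and 13.4 (mix), than in the tumors, at 9.65 (solid) and 2.64 (acinar). Host leukocytes of the xenografts would be mouse cells, while the stated build, hg19, is human. The part of leukocytes and of mouse reads in these values was not tested.

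Between settings, 59 of the 85 were measured, 6 were 2-fold higher and 10 lower in the tumors by the nearest pair (10.2% and 16.9%, against 9.67% and 8.22% of all genes). Higher in the tumors was ELF3, an epithelial transcription factor, at 746 (solid) and 687 (acinar) scaled counts in the tumors against 141 (single) and 70.4 (mix) in the cultures. The retinol dehydrogenase SDR16C5 (8.95 and 16.6 against 2.04 and 1.37), the saturase RETSAT (208 and 239.5 against 84.1 and 77.8), the responder GPRC5A (496 and 683 against 140 and 160) and RDH5 (7.01 and 6.45 against 1.30 and 0.277, fractional fragments) were also higher. Lower in the tumors were CD38 (37.2 and 36.6 in the cultures), the chylomicron remnant receptor LRP1 (95.1 and 58.9 against 328 and 301), the coactivator NCOA2 (11.5 and 8.84 against 38.9 and 35.6), NR2F1, a nuclear receptor, the coactivator EP300 and the transglutaminase TGM2, at 1321 and 1334 against 3017 and 4470.4 scaled counts. Of the genes named here, CD38, LRP1, NCOA2 and EP300 have transcripts in the longest bin, where tumors were lower in the median, and so does GPRC5A, which was higher in the tumors.

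**Figure D4:**
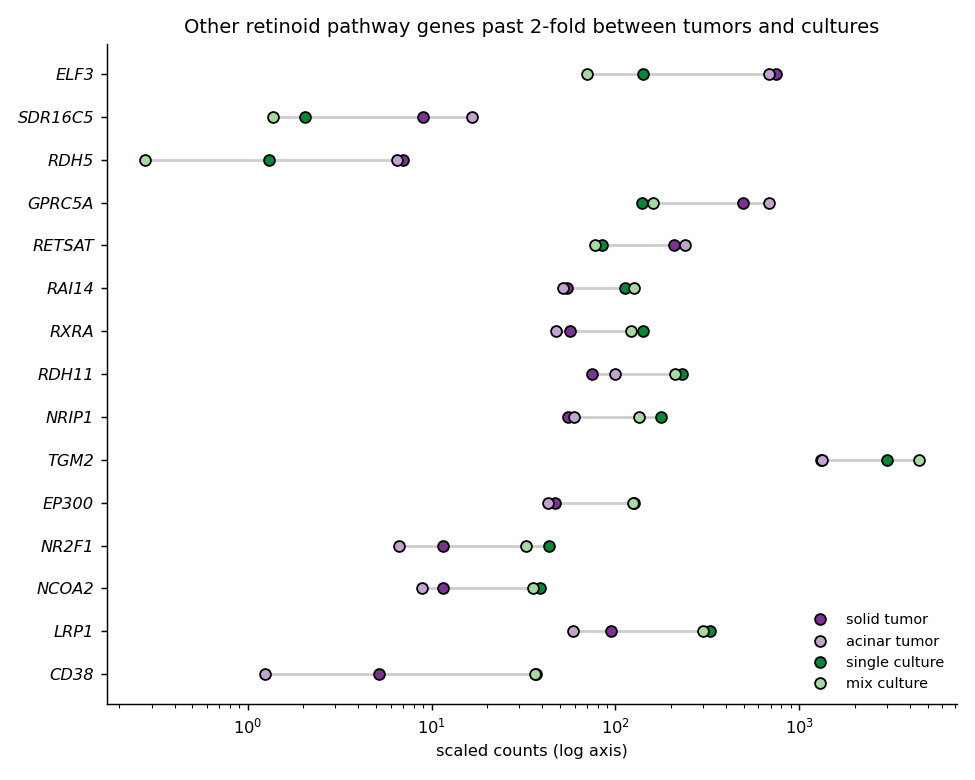
Level in scaled counts (log axis) of 15 other retinoid pathway genes at least 2-fold apart between both tumors and both cultures, each point 1 library and each row 1 gene. The uppermost 5 genes, led by ELF3, are higher in the tumors, and the lower 10 are higher in the cultures.

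The genes whose levels over the 4 libraries were most like those of RARRES1 were HABP2, C4BPA, CFI, IFITM10 and YPEL2, in this order. Likeness was the Euclidean distance between log2(scaled count + 1) profiles after each gene's mean was taken off, over 4 libraries and among 10396 other genes that reached 5 scaled counts in a library and had whole fragments (symbols of small, uncharacterised and long noncoding RNAs left out), and it ran from 0.62 to 0.87. HABP2, which encodes a plasma serine protease, was at 14.96, 9.15, 12.2 and 2.33 scaled counts in the solid tumor, acinar tumor, single culture and mix culture, and C4BPA, a complement inhibitor gene, at 24.1, 21.9, 20.9 and 3.62. Both were lower in the mix than in the single culture, by 5.21-fold and 5.76-fold, but unlike RARRES1 both were highest in the solid tumor. Because these genes were picked for likeness to RARRES1 over the same libraries, a low mix culture level follows from the choice and is a description. CFI, encoding complement factor I, was at 97.9, 80.5, 104 and 38.6 scaled counts. With a pseudocount of 5, 4 of these 5 remained among the nearest 5.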

How the data were processed

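The authors deposited 1 table of gene symbols with 1 signal per library, a raw signal per the file headers, though its step per library shows that it was scaled. Cuffdiff 2.2.1, SAMtools 1.0, Bowtie2 2.2.3 and TopHat2 2.0.13 and the build hg19 stand in the submitters' processing notes, with no role. Annotation, filters and strand use, not given in the sources used here, are unknown. Between 90.0% and 91.2% of values above 0 were whole multiples, within 0.05, of 1 step per library, taken as 1 fragment; the rest are fractional, so no count model was fitted. All values were divided by 8.94, 1 constant for the whole table, giving scaled counts. With 1 library per group no test was possible, and fragments are not independent molecules.

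Of 126 listed symbols, all matched, 1 through a synonym. Named are all 10 genes, listed pathway genes past 2-fold (at most 6 per comparison and direction), fixed key genes and the 5 genes nearest to RARRES1. A few listed genes enter the counts but are not reported here by name. The members and lists were chosen with earlier results of these data known. Promoters are RefSeq's and lengths GENCODE's. Fold calls and motif search were tested on simulated data. Python 3.11.15, numpy 2.4.6, scipy 1.17.1, pandas 2.3.3 and matplotlib 3.10.9 were used.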

Additional observations from a re-analysis of the deposited data

How the results depend on the processing

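Pseudocount, low-value filter, scaling between libraries and the removal of genes with fractional fragments were varied one at a time. Of 182 alternative values of the 9 measured retinoid genes' ratios, 178 stayed within the counting interval of the reported value. The 4 others were ALDH1A1 with library-total and upper-quartile scaling (0.65 and 0.63 between the tumors, and -0.24 with upper-quartile scaling between the cultures) and RARRES1 with a pseudocount of 5 (-2.33 between the cultures). Many of the 178 were fixed in advance. The filter and the removal of genes cannot change a ratio. A ratio between settings stands at 0 where tumors and cultures overlap. Only RARRES1 between the cultures had a reported ratio past 2-fold. Its sign did not change, and a pseudocount or a filter cannot change a sign. The number of the 10 genes past 2-fold lower in the mix culture was 2 with a pseudocount of 0.1, with library totals and with upper quartiles, RARRES3 being the second. For the 85 other pathway genes, a pseudocount of 0.1 gave 5 lower in the acinar tumor and 6 lower in the mix culture. A pseudocount of 5 gave 0 higher and 1 lower in the acinar tumor and 0 lower in the mix culture, and a filter of 5 scaled counts gave 1 higher in the acinar tumor and 0 lower in the mix culture, with fewer genes measured. Both scalings gave 2 lower in the mix culture. Over all genes, a pseudocount of 0.1 gave 478 higher and 692 lower in the acinar tumor and 192 higher and 522 lower in the mix culture. With 5 these were 114 and 101, and 33 and 73, and between settings 864 higher and 774 lower in the tumors. The filter of 5 gave 203 lower in the acinar tumor. No paired analysis was possible because each group holds 1 library, and leaving out a replicate could not be run for the same reason. Depth limits CRABP2, RARRES3 and ALDH1A2 most, which rest on 0 to 56 fragments per library.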
